A study of Mus musculus with 12 samples.

Results

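The rodent-specific ancestral LINE-1 repeats described here are the rows of class LINE and family L1 whose names begin with Lx, L1_ or L1VL. They were chosen by name alone, and 27 of the 18538 repeat names in the deposited tables met the rule, out of 150 LINE-1 names. The 27 comprised 21 Lx names, 5 L1_ names and 1 L1VL name. Total RNA was measured in C57BL/6 mouse embryos that had reached the 2-cell stage, 1.5 days post fertilization. KO embryos, given as Kdm4a knockout (m-/p-), came from Kdm4a knockout oocytes, and WT embryos, given as WT (m+/p-), from wildtype oocytes. Kdm4a knockout sperm was used for both, so WT embryos also carried no functional paternal allele and the contrast is of the maternal allele with the oocyte's stored product. Other differences between the females that gave the oocytes cannot be told apart from it. Embryos were collected singly, each genotype had 6 libraries, and the labels give neither the number of embryos per library nor the number of females, so the p-values measure the spread between these libraries. Kdm4a encodes a demethylase of histone H3 lysines. The tables list repeats, and the level of Kdm4a was not analysed here.

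LINE-1 elements are retrotransposons that move by reverse transcription of their own RNA, and most genomic copies are truncated at the 5′ end and no longer mobile. The Lx families spread early in the lineage of mice and rats, before the L1Md families that are still active in the mouse. The names L1_Rod, L1_Mur and L1_Mus point to rodents, murid rodents and the genus Mus. Mouse 2-cell embryos transcribe LINE-1 RNA during activation of the embryonic genome. Old copies also lie in introns and untranslated regions of genes, so reads of host transcripts can be counted under their names. The share of such reads was not tested, since the tables give no positions, lengths or copy numbers.

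Library totals ran from 7952526 to 16493286 counts in KO and from 10946392 to 18902360 in WT. MERVL-int, the internal part of the retrovirus whose RNA marks the 2-cell stage, was abundant in every library, at 19687 to 39592 normalised CPM in KO and 45234 to 91277 in WT. Normalised CPM are counts relative to a library size corrected by the TMM factor, which offsets shifts in composition. TMM factors lay between 0.978 and 1.26 in KO and between 0.767 and 0.977 in WT. The groups did not overlap in this factor, so the scaling bears on every comparison below. Counts are relative within a library, and fewer transcribing cells cannot be told apart from less RNA per cell. LTR retrotransposons took 44.2% to 51.7% of counts in KO and 54.1% to 59.6% in WT.

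All 27 names were transcribed or covered by transcripts in every library. The lowest count was 1158, for L1_Mus3, and the highest 93617, for Lx9. At 1158 reads the counting error alone is an SD of 0.0424 on the log2 scale, and it is smaller for every other value. Spread between libraries was larger, with a median SD over the 27 names of 0.21 log2 units in KO and 0.12 in WT. For 23 of the 27 the SD was larger in KO on this TMM scale. Without the TMM factor the order turned for the summed counts of the 27 names. Their share of all counts had an SD of 0.236 percentage points in KO and 0.414 in WT. Over the 555 repeats of any kind averaging 100 or more normalised CPM, the median SD was 0.19 in KO and 0.15 in WT. On the TMM scale the steadiest of the 27 names was Lx8, with an SD of 0.07 in KO and 0.05 in WT. L1VL1 had an SD of 0.31 in KO and 0.36 in WT, the highest value in either group being that of L1VL1 in WT.

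**Figure D1:**
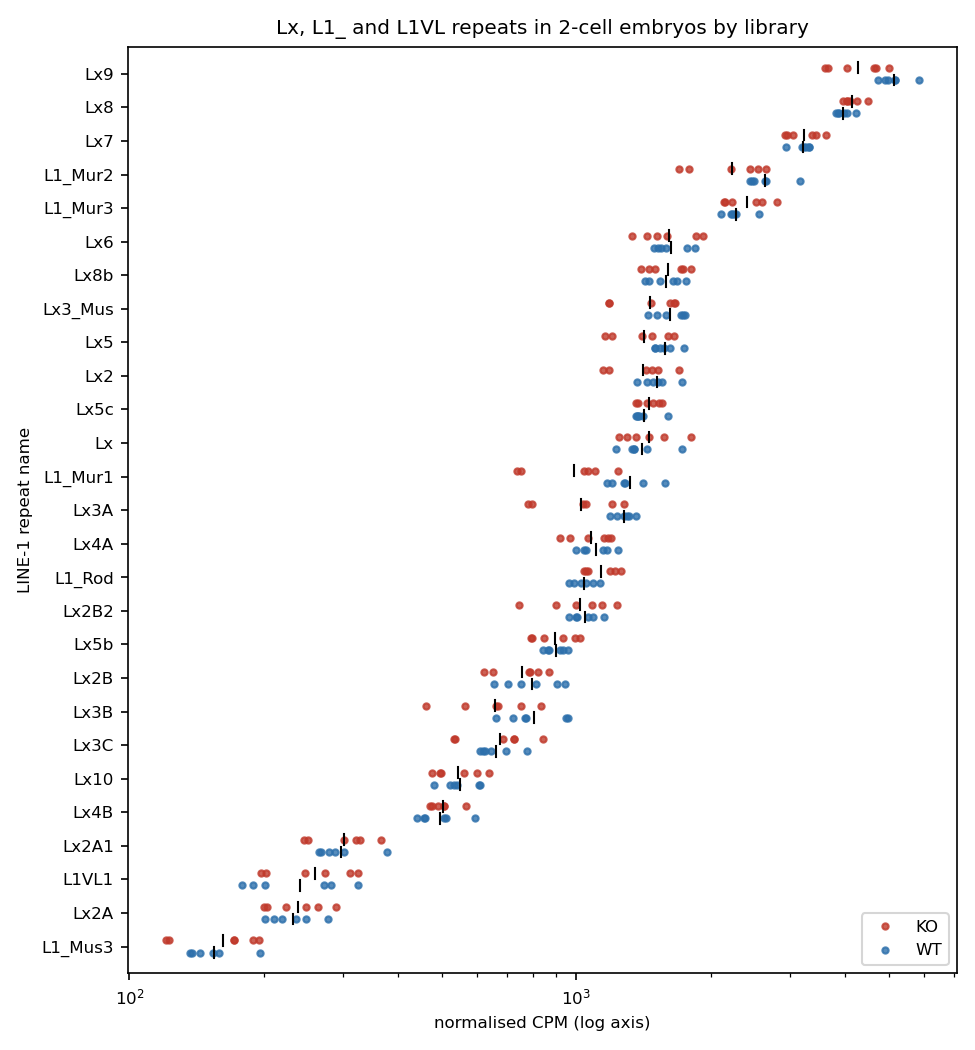
Normalised CPM (horizontal log axis) of each of the 27 repeat names (vertical axis, ordered by mean), with 1 point per library, KO above WT in each row, and a bar at each group's mean. Mean levels over the 12 libraries span 158 to 4700 normalised CPM, and KO and WT points overlap in every row.

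No member of the group was called higher or lower between the genotypes. Of the 27 tested names, 0 passed an adjusted p under 0.05 in either direction (edgeR quasi-likelihood test, Benjamini-Hochberg over all 3312 repeats tested). In all, 0.151% of repeats were called higher and 1.27% lower. DESeq2 called 0 of the 27 higher and 1 lower, against 42 higher and 127 lower (3.83%) of the 3312 repeats. Limma-voom called 0 of the 27 in either direction, against 8 higher and 63 lower of the 3312. At an unadjusted p under 0.05 none of the 27 was higher and 5 were lower, namely L1_Mur1, Lx9, Lx3A, Lx3B and L1_Mur2, against 5.5% of all repeats higher and 7.91% lower. On the TMM scale, in 0 of the 27 did the KO and WT libraries separate without overlap, which 2.11% of all repeats did. Scaled by total counts alone, 2 of the 27, L1_Rod and Lx7, were higher in every KO library and 0 lower. On that scale 192 of the 3312 repeats were higher in every KO library and 14 lower.

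Log2 fold changes, KO over WT, ran from -0.42 for L1_Mur1 to 0.13 for L1_Rod, with 13 positive and 14 negative. Their median was -0.0025, beside 0.01 over all repeats tested. With TMM scaling no 95% interval reached below -0.69 or above 0.46, and 26 of the 27 intervals lay within a 1.5-fold change in either direction. The exception was L1_Mur1. With total-count scaling the intervals reached from -0.35 to 0.75, and 23 of the 27 lay within a 1.5-fold change, those of Lx, L1_Mus3, L1_Rod and L1VL1 extending above it. Scaling by total counts shifted the median of all repeats to 0.32 and that of the 27 to 0.30, and 24 of the 27 fold changes were then positive. Under that scaling 6 of the 27 were called higher and 0 lower, namely L1_Rod, L1_Mur3, Lx8, Lx7, Lx5c and Lx5b, while 10.8% of all repeats were called higher and 0.996% lower.

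**Figure D2:**
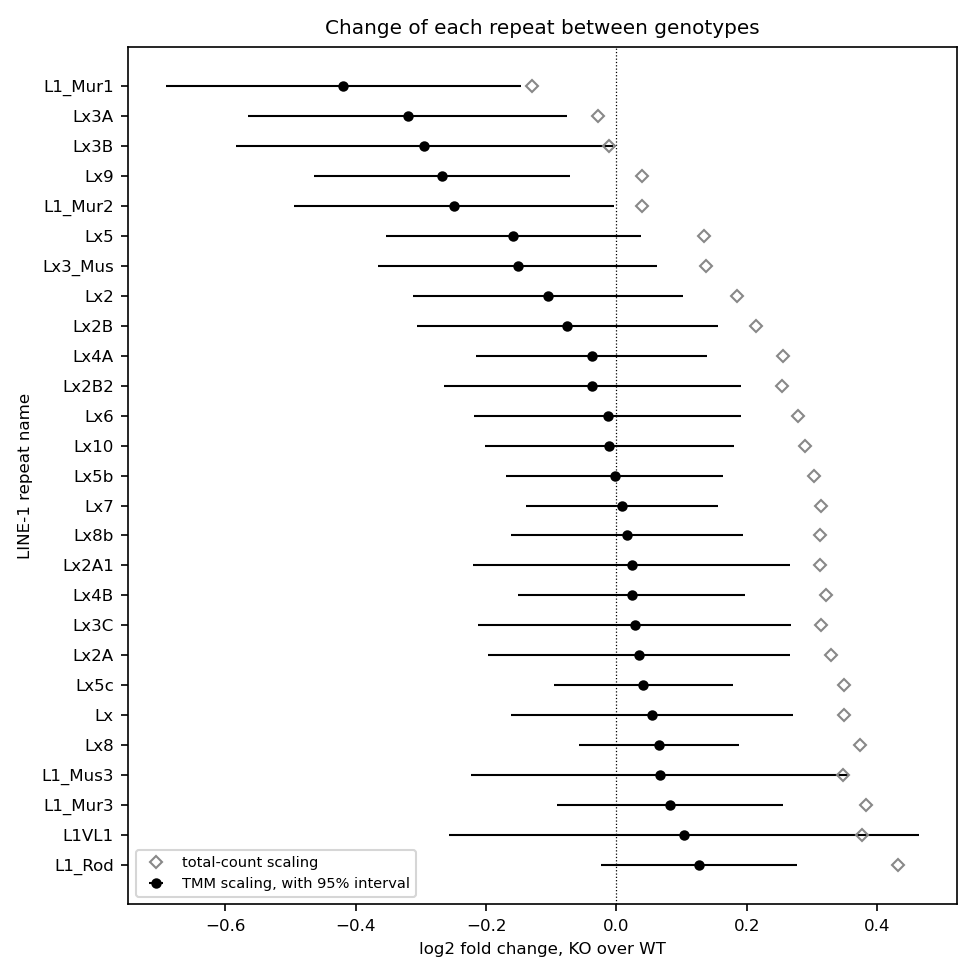
Log2 fold change of each of the 27 repeat names, KO over WT (horizontal axis), ordered by value. Filled points are estimates with TMM scaling and bars their 95% intervals, of which 5 lie below 0 and 22 include it; open diamonds are estimates with total-count scaling, displaced to the right by about the same amount in every row.

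Among the murid names, L1_Mur1 stood lowest in KO relative to WT. L1_Mur1 had 737, 1239, 1100, 1062, 1038 and 753 normalised CPM in KO replicates 1 to 6, against 1279, 1407, 1285, 1581, 1203 and 1171 in WT replicates 1 to 6. Every KO library except replicate 2 lay below every WT library. The means were 988 ± 201 in KO and 1321 ± 151 in WT (SD, n = 6 each), a log2 fold change of -0.42 (SE 0.13, 95% interval -0.69 to -0.15, edgeR adjusted p = 0.117).

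This name was not called in the main fit, and some other settings called it while most did not. Limma-voom gave L1_Mur1 an adjusted p of 0.0930. On removal of single libraries its edgeR adjusted p was 0.0553 at the lowest. DESeq2 gave L1_Mur1 an adjusted p of 0.0368, in a test that called 3.83% of all repeats lower. An edgeR fit of interspersed repeats alone gave an adjusted p of 0.0225 (8.64% of its rows called lower), and one of repeats with at least 10 CPM in 6 libraries gave 0.0390 (6.29%). The sign was negative under every alternative, with log2 fold changes of -0.13 under total-count scaling (edgeR adjusted p = 0.442) and -0.25 without KO replicates 1 and 6 (edgeR adjusted p = 0.351). Over all alternatives its adjusted p ranged from 0.00676 to 0.442.

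L1_Mur2 leaned the same way with less distance between the groups, and L1_Mur3 did not. L1_Mur2 had 1696, 2548, 2659, 2216, 2445 and 1789 normalised CPM in KO, against 2637, 2447, 2494, 3170, 2470 and 2651 in WT. In KO, 4 libraries were below every WT library, while replicates 2 and 3 lay inside the WT range. Its log2 fold change was -0.25 (SE 0.11, edgeR adjusted p = 0.362), and 0.04 under total-count scaling.

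L1_Mur3 had 2147, 2606, 2808, 2232, 2529 and 2138 normalised CPM in KO, against 2107, 2222, 2232, 2565, 2258 and 2276 in WT. KO replicates 2 and 3 exceeded every WT library, and the others lay among them. The log2 fold change was 0.08 (SE 0.08, 95% interval -0.09 to 0.26, edgeR adjusted p = 0.749).

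The Lx3 names differed among themselves in the same manner. Lx3A had 797, 1281, 1200, 1036, 1053 and 778 normalised CPM in KO, against 1235, 1362, 1187, 1312, 1295 and 1280 in WT. The WT values were close together, and 4 KO libraries lay below all of them. Its log2 fold change was -0.32 (SE 0.11, edgeR adjusted p = 0.189), and -0.03 under total-count scaling.

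Lx3B had 462, 751, 832, 667, 661 and 564 normalised CPM in KO, against 772, 722, 767, 960, 947 and 661 in WT. KO replicates 1, 5 and 6 were below every WT library, replicate 5 only narrowly, and KO replicate 3 exceeded 4 of the WT libraries. Its log2 fold change was -0.29 (SE 0.14, edgeR adjusted p = 0.358). Under total-count scaling Lx3B was at -0.01.

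Lx3_Mus had 1184, 1650, 1622, 1469, 1664 and 1183 normalised CPM in KO, against 1731, 1449, 1516, 1713, 1746 and 1584 in WT. KO replicates 1 and 6 were below every WT library and the other KO libraries lay within the WT range. The log2 fold change was -0.15 (SE 0.10, edgeR adjusted p = 0.563), and 0.14 under total-count scaling. Lx3C, the remaining Lx3 name, had means of 674 ± 121 normalised CPM in KO and 661 ± 63.0 in WT (SD, n = 6 each) and a log2 fold change of 0.03.

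Lx9, Lx8 and Lx7 held the most counts of the group. Counts per name depend on how many copies a name has and on their length, so they do not rank the names by activity. Lx9 had 3603, 4633, 5011, 4027, 4674 and 3648 normalised CPM in KO, against 4897, 5852, 5176, 5174, 4734 and 4974 in WT. All KO libraries but replicate 3 were below every WT library. The log2 fold change was -0.27 (SE 0.09, 95% interval -0.46 to -0.07, edgeR adjusted p = 0.170), and it turned to 0.04 under total-count scaling.

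Lx8 had 4040, 4093, 4240, 3945, 4497 and 4032 normalised CPM in KO, against 3972, 3853, 3800, 4030, 4217 and 3876 in WT. All 6 KO libraries lay above the WT median, but only 2 exceeded every WT library. Its log2 fold change was 0.07 (SE 0.06, 95% interval -0.06 to 0.19, edgeR adjusted p = 0.700).

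Lx7 had 2934, 3366, 3443, 3060, 3621 and 2961 normalised CPM in KO, against 3264, 3315, 3204, 3316, 3229 and 2939 in WT. In KO, 3 libraries exceeded all WT libraries and the rest spread across the WT range or below it. The log2 fold change of Lx7 was 0.01 (SE 0.07, 95% interval -0.14 to 0.16, edgeR adjusted p = 0.983).

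Lx6 and Lx8b, also among the 8 names with the most counts, had fold changes close to 0. Lx6 had 1440, 1924, 1854, 1519, 1597 and 1331 normalised CPM in KO, against 1548, 1520, 1585, 1839, 1767 and 1494 in WT. Lx8b had 1456, 1716, 1734, 1502, 1806 and 1394 in KO, against 1643, 1426, 1536, 1762, 1682 and 1450 in WT. In each name the KO libraries reached both below and above the whole WT range. The log2 fold changes were -0.01 for Lx6 and 0.02 for Lx8b, with SEs of 0.10 and 0.08 (edgeR adjusted p = 0.980 and 0.970).

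Another 13 Lx names gave no call. Lx5 had the most negative log2 fold change among them, -0.16 (SE 0.09, edgeR adjusted p = 0.495), from means of 1416 ± 204 normalised CPM in KO and 1580 ± 92.6 in WT (SD, n = 6 each). Next came Lx2 at -0.11 and Lx2B at -0.08. Lx itself, the name without a number, was at 0.05 and Lx5c at 0.04, the most positive values of these 13. The others, Lx2A, Lx2A1, Lx2B2, Lx4A, Lx4B, Lx5b and Lx10, lay between -0.04 and 0.03, and Lx3C, given above, at 0.03.

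The rodent-wide name L1_Rod had the largest positive fold change of the group. It had 1063, 1191, 1261, 1051, 1221 and 1040 normalised CPM in KO, against 1091, 990, 1027, 1128, 965 and 1050 in WT. All KO libraries lay above the WT median and 3 above every WT library. The log2 fold change was 0.13 (SE 0.07, 95% interval -0.02 to 0.28, edgeR adjusted p = 0.466). Scaled by total counts it was 0.43 (edgeR adjusted p = 0.00877).

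L1VL1 was the least evenly counted. It had 202, 312, 273, 247, 325 and 197 normalised CPM in KO, against 282, 189, 179, 324, 272 and 202 in WT. The ranges of the groups coincided almost entirely, and in each group some libraries were over 1.5 times others. Its log2 fold change of 0.10 had the widest 95% interval of the 27, from -0.26 to 0.46 (edgeR adjusted p = 0.877). L1_Mus3, the name with the fewest counts, averaged 162 ± 32.4 normalised CPM in KO and 154 ± 22.1 in WT (SD, n = 6 each), and its fold change was 0.07 on the log2 scale (edgeR adjusted p = 0.910).

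Single libraries moved nearly all names together. KO replicate 1 was below the mean of the 12 libraries for 27 of the 27 names and KO replicate 6 for 26. For 23 names these were the 2 lowest KO libraries, and for 16 the 2 lowest of all 12. WT replicate 4 was the highest WT library for 21 names and the highest of all 12 for 10. The median log2 deviation was -0.24 in KO replicate 1, -0.27 in KO replicate 6 and 0.19 in WT replicate 4. These places are on the TMM scale. With total-count scaling WT replicate 2 was the lowest of the 12 libraries for 23 names, with a median log2 deviation of -0.41. On that scale KO replicate 5 was the highest of all 12 for 9 names and KO replicate 3 for 8.

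KO replicates 1 and 6 also had the highest TMM factors, 1.26 and 1.24. MERVL-int was at 19687 and 23149 normalised CPM in them, the lowest of all libraries, and SINEs of the Alu family, the B1 repeats of mouse, took 6.57% and 7.92% of their counts, the highest of all. In the other KO libraries that share was 5.31% to 5.78%, and in WT 4.51% to 5.27%. With total-count scaling the median log2 deviation of the 27 names was 0.09 in KO replicate 1 and 0.04 in KO replicate 6, so their low place depends on the scaling. Without both libraries, 20 of the 27 fold changes were positive (median 0.07), and 0 of the 27 were called higher or lower. Of all repeats tested, 0 were then called higher and 2 lower. The part of these features in the results was not tested.

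**Figure D3:**
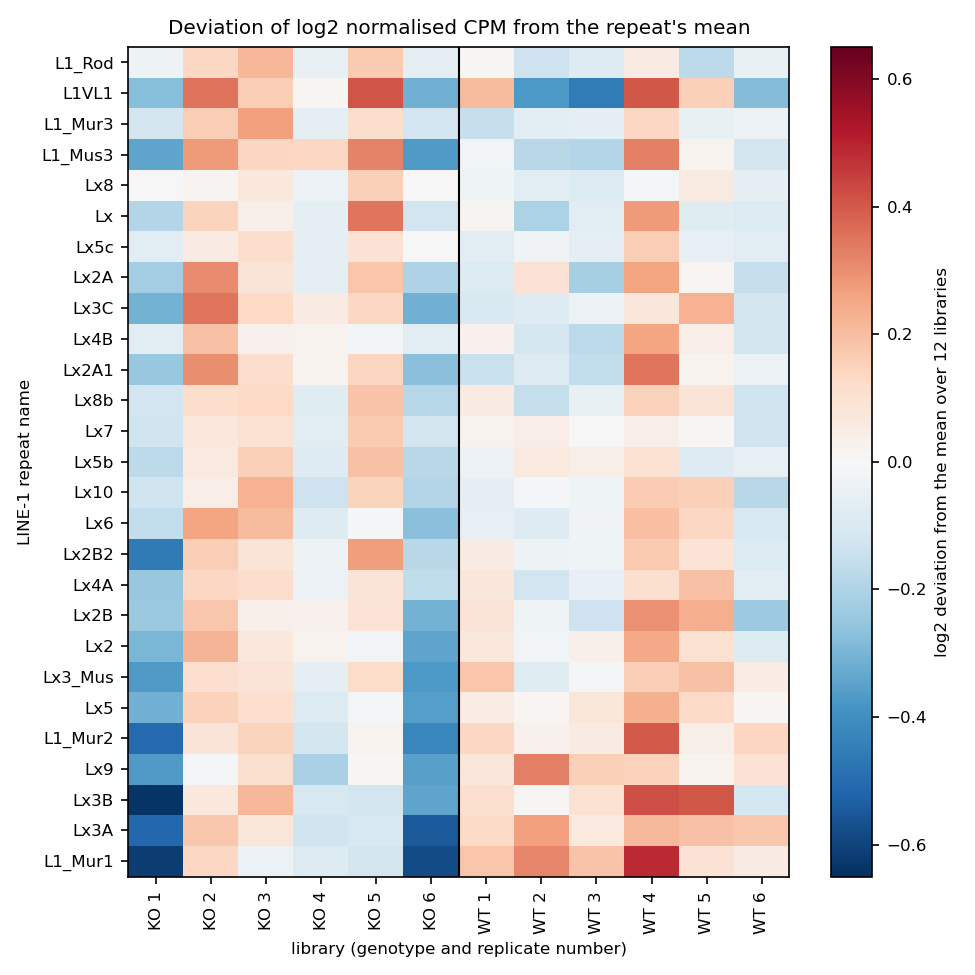
Deviation of log2 normalised CPM from each repeat's mean over the 12 libraries (colour, red above and blue below), with repeat names in rows from the highest to the lowest fold change and libraries in columns, KO left of WT. The columns of KO replicates 1 and 6 are blue for nearly all names and that of WT replicate 4 is red.

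Summed over the 27 names, the counts made up a larger part of KO libraries. They were 4.02%, 3.98%, 4.44%, 3.82%, 4.33% and 3.99% of all counts in KO replicates 1 to 6, against 3.57%, 2.94%, 3.27%, 4.08%, 3.84% and 3.34% in WT. All KO values exceeded the WT median, and 2 exceeded every WT value. The means were 4.10% ± 0.236 in KO and 3.51% ± 0.414 in WT (SD, n = 6 each). As a sum over chosen names it was not tested. Without the 20 most abundant other repeats in the totals, the difference of KO minus WT was 0.323 percentage points, against 0.588 with them. The smaller totals raise the share in every library, so the sizes of these differences are not on the same base.

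The direction of that difference followed the denominator. Of the counts outside the LTR class the 27 names held 7.85% ± 0.505 in KO and 7.94% ± 0.652 in WT (SD, n = 6 each), with overlapping ranges. Of all LINE-1 counts they held 36.9% ± 1.22 in KO and 35.1% ± 1.57 in WT, and 3 KO libraries exceeded every WT library. The summed normalised CPM were 36920 ± 4214 in KO and 38888 ± 2017 in WT.

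Set against other LINE-1 counts, the sum was higher in KO relative to the L1Md names of mouse and lower relative to the remaining names. The log2 ratio of their summed counts to those of the 25 L1Md names was 0.01 ± 0.15 in KO and -0.24 ± 0.13 in WT (SD, n = 6 each), and all KO libraries lay above the WT median. The log2 ratio to the remaining 98 LINE-1 names was 0.48 ± 0.07 in KO and 0.58 ± 0.07 in WT, with 4 KO libraries below every WT library. Without the 5 further Lx-named repeats among those 98, it was 0.98 ± 0.13 in KO and 1.17 ± 0.09 in WT, a difference of -0.19 against -0.10 with them. Against SINEs of the Alu family it was -0.57 ± 0.25 in KO and -0.44 ± 0.17 in WT. The lowest of these ratios, -0.71 and -0.99, came from KO replicates 1 and 6.

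**Figure D4:**
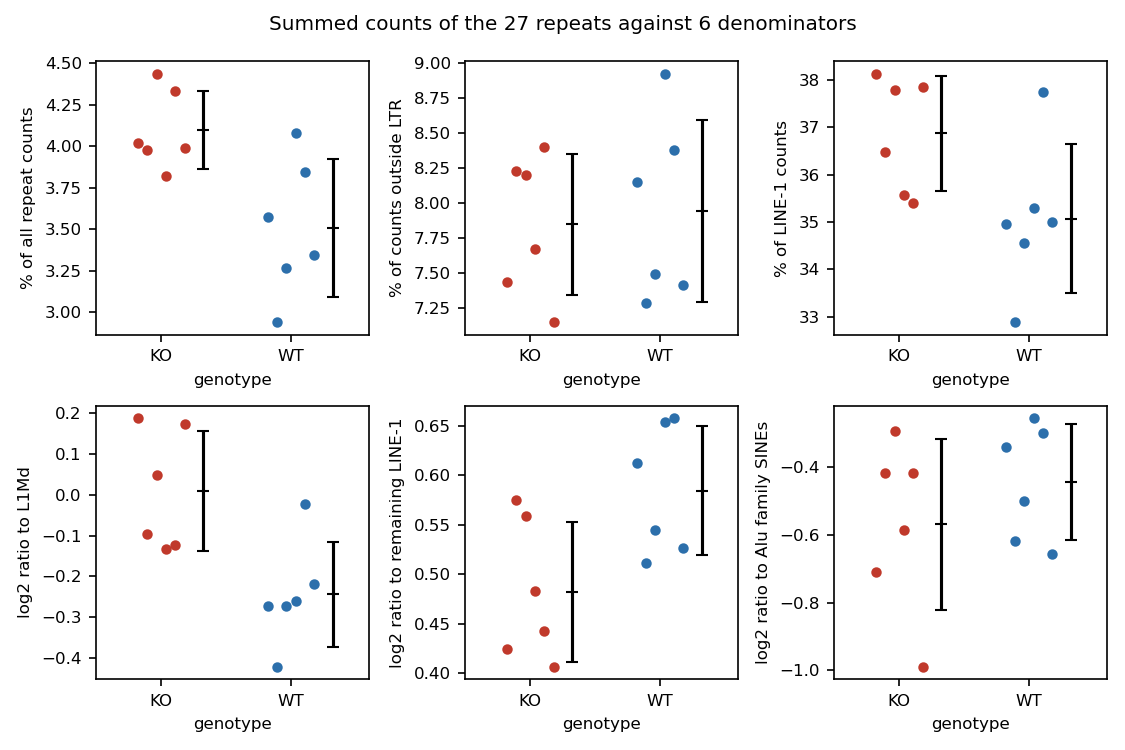
Summed counts of the 27 repeat names in each library as percentages of 3 totals (upper row) and as log2 ratios to 3 other groups of repeats (lower row), KO left of WT. Points are libraries, and bars give the mean and SD of 6; the vertical axes do not start at 0. KO means lie higher in the panels of all counts, LINE-1 counts and L1Md, and lower against the remaining LINE-1 names. KO and WT points overlap in each of these panels.

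Subgroups kept nearly constant parts of the sum. The Lx names made up 80.6% ± 0.621 of it in KO and 80.3% ± 0.835 in WT (SD, n = 6 each), the L1_ names 18.7% ± 0.595 in KO and 19.1% ± 0.814 in WT, and L1VL1 0.698% ± 0.0767 in KO and 0.617% ± 0.126 in WT. Below the level of subgroups the makeup differed more. A share within the sum needs no scaling between libraries. For 24 of the 27 names the KO and WT shares overlapped, for 2 they were higher in every KO library and for 1 lower. With counts of all 3312 repeats set against the same sum, 0.483% were higher in every KO library and 1.15% lower. The 27 names make up that sum and moved together between libraries on the TMM scale, so this background is not like for like.

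L1_Mur1 held 2.31%, 3.05%, 2.70%, 2.97%, 2.58% and 2.34% of the sum in KO, against 3.32%, 3.67%, 3.41%, 3.71%, 3.06% and 3.18% in WT. All KO shares were lower, although KO replicate 2 and WT replicate 5 nearly met. L1_Mur3 held 6.25% to 6.88% in KO and 5.47% to 6.17% in WT, and L1_Rod 2.93% to 3.33% in KO and 2.45% to 2.85% in WT. For these a higher share was seen in every KO library. The shares of Lx9 were 11.5% ± 0.387 in KO and 13.2% ± 1.22 in WT (SD, n = 6 each) and overlapped by 1 KO library.

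Ratios of related names within a library restate the same counts and are no further evidence. The pairs were chosen after their values were seen and were not tested. The log2 ratio of L1_Mur1 to L1_Mur3 was -1.30 ± 0.20 in KO and -0.79 ± 0.12 in WT (SD, n = 6 each). That of L1_Mur2 to L1_Mur3 was -0.13 ± 0.14 in KO and 0.21 ± 0.09 in WT, and that of Lx3A to Lx3C was 0.60 ± 0.07 in KO and 0.96 ± 0.14 in WT. In these 3 pairs every KO library was below every WT library. For Lx9 to Lx8 the ratio was 0.03 ± 0.16 in KO and 0.37 ± 0.15 in WT, with 4 KO libraries below every WT library. How many of all possible pairs separate was not counted, so these separations have no background to be set against. The ratio of Lx3A to Lx3B was 0.64 ± 0.13 in KO and 0.68 ± 0.22 in WT.

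**Figure D5:**
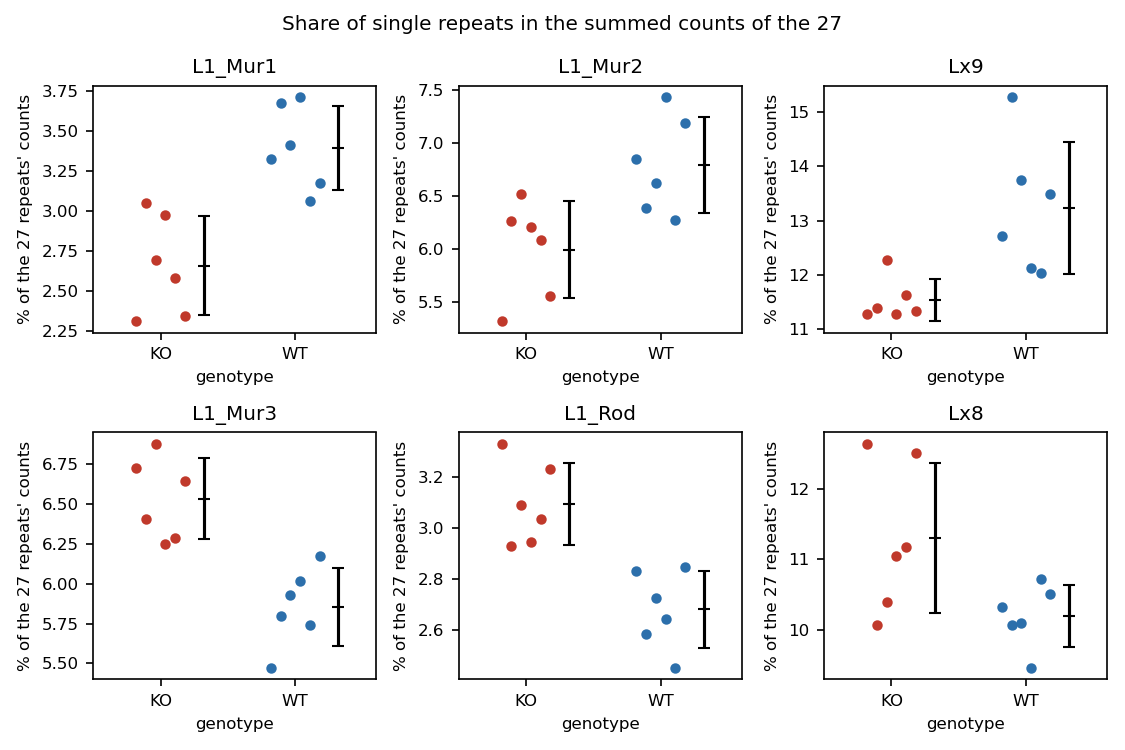
Share of 6 repeat names in the summed counts of the 27 names (vertical axes, percent, not starting at 0), KO left of WT; points are libraries and bars give the mean and SD of 6. KO shares are all lower for L1_Mur1, all higher for L1_Mur3 and L1_Rod, and overlap with WT for L1_Mur2, Lx9 and Lx8.

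A fit of LINE-1 rows alone, scaled by summed LINE-1 counts, set each name against the family as a whole; it is no test of the pairs above and uses the same libraries. It called 5 of the 27 names higher (L1_Rod, L1_Mur3, Lx8, Lx5c and Lx) and 1 lower (L1_Mur1), against 34.9% of the 149 LINE-1 rows called higher and 4.7% lower. Lx3A, Lx9, L1_Mur2 and Lx3C did not pass (edgeR adjusted p = 0.0575, 0.116, 0.199 and 0.114). The log2 fold changes were 0.28 for L1_Rod and -0.28 for L1_Mur1 (edgeR adjusted p = 0.00601 and 0.00676). On this scale the median LINE-1 row was at 0.23 and the median of the 27 at 0.15, so L1_Rod was little above the typical LINE-1 row and L1_Mur3, at 0.23, was level with it.

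Other LINE-1 names gave few calls with all repeats in the fit. Of the 25 L1Md names 0 were called higher and 2 lower, L1MdA_II and L1MdGf_II, and the median log2 fold change was 0.01. The median over names weights each name equally, and by it the 27 (-0.0025) were level with L1Md, unlike the ratio of summed counts. Of the remaining names 97 were tested, 0 were called higher and 1, X9_LINE, was called lower, with a median of 0.17. At an unadjusted p under 0.05, 30 of these 97 were higher and 2 lower.

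Another 5 Lx names, L1Lx_I to L1Lx_IV and LX3, fall outside the rule by spelling and are counted among the remaining names. L1Lx_I had 2282, 3338, 3369, 3300, 3452 and 2420 normalised CPM in KO, against 4297, 4531, 4424, 4508, 3395 and 4224 in WT. Every WT library but replicate 5 exceeded every KO library. Its log2 fold change was -0.48 (SE 0.12, edgeR adjusted p = 0.0517), just short of the threshold. L1Lx_II, L1Lx_III and L1Lx_IV were at -0.04, 0.02 and 0.19, and LX3, with at most 23 counts in KO and 7 in WT, was not tested. With the tested 4 added, the median log2 fold change of the group stayed at -0.0025.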

How the data were processed

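For each of 12 libraries the authors deposited a list of repeat names, classes and families with an estimated count of reads. Per the submitters' processing notes the build was mm10 and the tools included Trimmomatic 0.32 and edgeR. The aligner, the repeat annotation, the counting program and the use of strand were not given in the sources used here. Related repeats can share reads, so separate levels of near-identical names are uncertain. All values were whole (0 were not), so rounding changed nothing. Genotypes and replicate numbers came from the sample titles.

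Repeats kept by filterByExpr (3312) were fitted with edgeR 4.0.16 in R 4.3.3: TMM factors, genotype as the only term, quasi-likelihood F test, Benjamini-Hochberg over all rows, threshold 0.05. Standard errors come from the F statistic, and intervals are at 95%. The test was run on simulated data with independently drawn libraries and changes larger than those of the members. That run does not cover changes of their size or shifts shared by many names. Values by library are given for called names, the 8 with the most counts, the 4 with the smallest p and the 2 largest changes each way among names averaging 10 CPM or more. The members and lists were chosen with earlier results of these data known. Settings tried were other scalings, filters and row sets, DESeq2 1.42.0, limma 3.58.1 (voom with quality weights), robust edgeR, a replicate block and removal of libraries.

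Over 30 pairs of replicates within a genotype the smallest chi-square per degree of freedom was 16.9, so none agreed within sampling noise. No molecular identifiers are known, and counting errors cover reads only.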

Additional observations from a re-analysis of the deposited data

Results flagged for a closer look

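In 7 of the 68 sets of 6 values examined, 1 library lay far from the other 5 by Dixon's test at 95%; chance gives about 1 set in 20, and the names share libraries and scaling. WT replicate 4 was high in 5 of them. There L1_Mus3 was at 196 normalised CPM (other WT libraries 137 to 159), Lx2A1 at 378 (266 to 302), L1_Mur3 at 2565 (2107 to 2276), L1_Mur2 at 3170 (2447 to 2651) and Lx5c at 1601 (1360 to 1410). WT replicate 4 was also the deepest library, with 18902360 counts. Lx7 was low in WT replicate 6, at 2939 normalised CPM (other WT libraries 3204 to 3316). Lx4B was high in KO replicate 2, at 568 (other KO libraries 471 to 507).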

How the results depend on the processing

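Names called and medians depended mainly on the scaling and the row set. Calls among the 27 were 6 higher under total-count scaling (median log2 fold change 0.303) and 5 higher with 1 lower on LINE-1 rows alone. L1_Mur1 was the 1 name called lower on interspersed repeats alone, with at least 10 CPM in 6 libraries and by DESeq2. RLE and upper quartile scaling, no filter, limma-voom with quality weights, robust edgeR and removal of any library gave 0 calls. Same-numbered KO and WT libraries did not deviate together (correlations -0.07 to 0.15, over 0.1 in 1 of 6 pairs), and 2 of 6 KO libraries correlated best with their own number. With the replicate block 0 of the 27 were called, L1_Mur1 stood at -0.44 on the log2 scale (edgeR adjusted p = 0.0673), and the table's calls were 1 higher and 47 lower. The difference in summed share, 0.588 percentage points, was 0.474 to 0.702 on removal of single libraries. It was 0.323 without the 20 most abundant other repeats in the totals, where every share is larger. Calls over the whole table, 5 higher and 42 lower, moved by over 1.5 times with total-count scaling (357 and 33), interspersed repeats alone (31 and 95), no filter (1 and 17), the 10 CPM filter (21 and 91), DESeq2 (42 and 127) and limma-voom (8 and 63), with RLE scaling in the higher calls (3 and 37), and without WT replicate 2 and KO replicate 5 in the lower (4 and 19). Without single libraries they ran from 1 and 18 (KO replicate 6 or WT replicate 6) to 9 and 84 (KO replicate 2).

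Signs of fold changes that were not called turned, also where the TMM interval lay below 0 (Lx9 and L1_Mur2). Under total-count scaling L1_Mur2 was at 0.040, Lx3_Mus at 0.137, Lx6 at 0.279 and Lx9 at 0.039. Lx6 was at 0.015 with upper quartile scaling, 0.132 on LINE-1 rows alone, 0.00042 with no filter and 0.083 without KO replicates 1 and 6 (a choice made after seeing the data). With limma-voom Lx7 was at -0.00011 and Lx8b at -0.0093. Without WT replicate 2 and KO replicate 5 together, L1VL1 was at -0.029, Lx7 at -0.016 and Lx8b at -0.048. On removal of single libraries Lx6 ranged from -0.069 to 0.037, Lx7 from -0.025 to 0.036 and Lx8b from -0.019 to 0.054. The cause was not tested.

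Depth limited none of the 27 names; the spread between libraries set their intervals.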
